A study of Mus musculus with 12 samples.

Results

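The repeated inter-chromosomal pairs are pairs of anchors on different autosomes that were joined by 3 or more read pairs in a Hi-C table of mouse embryonic stem cells (ESC) or neuronal committed cells (NCC). An anchor is a stretch of restriction fragments to which read ends were assigned, and the score of an interaction is the number of read pairs between its anchors. There were 734 such pairs among 2055207 autosomal inter-chromosomal interactions in ESC and 694 among 2414851 in NCC, which is 0.0357% and 0.0287%. They held 4722 of 2072815 autosomal inter-chromosomal read pairs in ESC (0.228%) and 4246 of 2431059 in NCC (0.175%). Anchors overlapping 3 windows that draw many read pairs, on chromosomes 17, 2 and 11, had been left out, which removed 67 of 801 pairs in ESC and 63 of 757 in NCC. The pairs were chosen by this score, which is given below as a description only. Just outside the threshold, 5814 interactions in ESC and 4654 in NCC had a score of 2, and just inside it 320 and 310 had a score of 3. All comparisons below take the 2048777 ESC and 2406614 NCC interactions outside the 3 windows as the background, and these include the repeated pairs themselves.

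The study compared chromatin contacts before and after the onset of neuronal development. E14Tg2A cells, a mouse ESC line, were kept with 100 U/mL leukemia inhibitory factor (LIF) as ESC, or were grown without it in 1 μM retinoic acid for 48 h as NCC. Hi-C was done in both, and HiChIP, in which contacts are enriched with an antibody, was done for FGFR1, a growth factor receptor also found in the nucleus, and for CTCF, an architectural protein. Each of the 6 deposited tables merges 2 biological replicates, so that no spread between replicates can be given. Intervals below are 95% Wilson intervals, which cover counting error only, because reads without molecular identifiers are not independent molecules and pairs share anchors. Both cell types are the same line, so that a contact shared by both cannot be told apart from a feature of this line's genome or of the reference assembly.

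Hi-C joins DNA ends that are close in the crosslinked nucleus, and any given pair of loci on different chromosomes is rarely caught. Ribosomal RNA genes lie in tandem arrays on several chromosomes, gather in nucleoli, and are largely missing from genome assemblies, while short rRNA-like fragments are scattered across chromosomes. Processed pseudogenes are copies of spliced mRNAs inserted elsewhere in the genome, and reads from near-identical copies can be placed at either copy.

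The pairs of sequences printed here show what the anchors of repeated pairs had in common, all read from the GRCm38 (mm10) reference, 5′ to 3′, with bases that differ between the members of a pair in capitals. The first pair comes from chr6:49235873-49237328, which has no annotated gene, and an intron of Gphn, both loci with many partners, and has 1 mismatch in 120 bases.
chr6:49236450-49236569 (+): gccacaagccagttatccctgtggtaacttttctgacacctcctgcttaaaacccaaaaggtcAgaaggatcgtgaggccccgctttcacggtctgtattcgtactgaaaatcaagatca
chr12:78350998-78351117 (-), Gphn intron: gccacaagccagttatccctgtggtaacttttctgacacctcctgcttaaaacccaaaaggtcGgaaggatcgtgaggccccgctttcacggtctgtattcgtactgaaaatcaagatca
The second pair joins a locus of chromosome 8 without a gene to the introns of Cmss1 and Filip1l, with 0 mismatches in 120 bases.
chr8:15519937-15520056 (+): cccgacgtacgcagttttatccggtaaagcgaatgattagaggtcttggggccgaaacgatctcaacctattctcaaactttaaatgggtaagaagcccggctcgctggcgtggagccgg
chr16:57391179-57391298 (-), Cmss1 and Filip1l introns: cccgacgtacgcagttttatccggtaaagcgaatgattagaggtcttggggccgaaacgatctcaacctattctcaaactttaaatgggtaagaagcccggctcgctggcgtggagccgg
Both stretches read as parts of the large-subunit rRNA gene from general knowledge of that conserved sequence. This was not measured, because no full copy of that gene was used here.
The third pair sets a locus near the start of chromosome 6 beside the small-subunit rRNA copy in the chromosome 17 window that had been left out, with 1 mismatch in 120 bases.
chr6:3200770-3200889 (+): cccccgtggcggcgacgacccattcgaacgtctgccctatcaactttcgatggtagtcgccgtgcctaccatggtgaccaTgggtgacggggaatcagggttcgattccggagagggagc
chr17:39846681-39846800 (+), rRNA window: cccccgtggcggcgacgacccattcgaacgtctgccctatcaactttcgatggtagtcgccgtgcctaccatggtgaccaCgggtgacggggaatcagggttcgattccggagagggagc
The fourth pair sets the coding exon of the histone H2A gene Hist2h2aa2 beside Hist1h2al, which is annotated as a processed pseudogene, with 1 mismatch in 120 bases.
chr3:96240063-96240182 (+), Hist2h2aa2: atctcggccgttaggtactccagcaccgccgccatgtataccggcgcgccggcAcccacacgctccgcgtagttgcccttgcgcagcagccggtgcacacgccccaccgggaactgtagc
chr13:51202893-51203012 (+), Hist1h2al: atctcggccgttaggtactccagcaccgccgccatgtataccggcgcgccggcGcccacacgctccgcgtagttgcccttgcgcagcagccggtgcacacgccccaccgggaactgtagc
The fifth pair lies in introns of Lmtk2 and Ift88, the highest pair of NCC with both anchors called in ESC and no read pair there. It has 10 mismatches in 120 bases. Copies of this stretch elsewhere in the genome were not counted, so that it is not known to be particular to these anchors.
chr5:144124766-144124885 (+), Lmtk2: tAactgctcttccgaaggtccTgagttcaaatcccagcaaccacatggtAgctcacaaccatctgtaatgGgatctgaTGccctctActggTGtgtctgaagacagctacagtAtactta
chr14:57491140-57491259 (+), Ift88: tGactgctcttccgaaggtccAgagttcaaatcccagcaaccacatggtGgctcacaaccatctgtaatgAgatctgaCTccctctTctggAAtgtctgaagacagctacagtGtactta
The sixth pair is the stretch that aligned between the ESC anchors at Itpkb and Obox4-ps35, the highest pair with further contacts around it, and is a simple AC repeat of 41 bases.
chr1:180331310-180331350 (+), Itpkb intron: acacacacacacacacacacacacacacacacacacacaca
chr7:15819435-15819475 (-), no gene: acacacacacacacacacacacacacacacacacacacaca

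Most repeated pairs of one cell type were listed in the other cell type, a library that their choice had not used. In ESC 470 of 734 pairs (64%, interval 60.5 to 67.4) were listed in NCC Hi-C, beside 0.15% of all interactions. In NCC 451 of 694 (65%, interval 61.4 to 68.4) were listed in ESC Hi-C, beside 0.128%. A score of 3 or more in the other cell type was reached by 291 ESC pairs (39.6%, against 0.023% of all interactions) and 289 NCC pairs (41.6%, against 0.0204%). The share rose with the score. Of ESC interactions with a score of 1, 2, 3, 4 and 5 or more, 0.110%, 6.16%, 46.9%, 66.7% and 82.8% were listed in NCC. The step from score 2 to score 3 was larger than the counting intervals, which were 5.57 to 6.80% and 41.5 to 52.3%. A pair could be listed in the other table only if both its anchors had been called there. This held for 658 ESC pairs, of which 71.4% were listed (interval 67.9 to 74.7), and for 604 NCC pairs, of which 74.7% were listed (interval 71.1 to 78).

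The HiChIP libraries, which also had no part in the choice, listed many of the same pairs. In ESC 339 pairs (46.2%, interval 42.6 to 49.8) were in at least 1 of the 4 HiChIP tables, against 0.063% of all interactions. In NCC 297 pairs (42.8%, interval 39.2 to 46.5) were, against 0.0487%. ESC FGFR1 HiChIP placed 0.851 read pairs on a repeated ESC pair on average and 0.0189 on an ESC interaction of score 2. ESC CTCF HiChIP placed 0.508 and 0.00843, NCC FGFR1 HiChIP 1.01 and 0.0124, and NCC CTCF HiChIP 0.353 and 0.00533. These are averages, and most of the pairs had no read pair in a given HiChIP table. Of the repeated ESC pairs, 26.8% and 20.7% were listed in ESC FGFR1 and CTCF HiChIP, against 0.028% and 0.017% of all interactions. In NCC FGFR1 and CTCF HiChIP 30.5% and 16.9% were, against 0.0272% and 0.0131%. Some of the pairs were therefore seen with each antibody. The tables have 1065662 to 3232003 read pairs, so that levels between them are not compared. In Hi-C, NCC had 3.97 read pairs per repeated ESC pair and 0.112 per ESC interaction of score 2, and ESC had 4.73 and 0.157 for those of NCC.

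**Figure D1:**
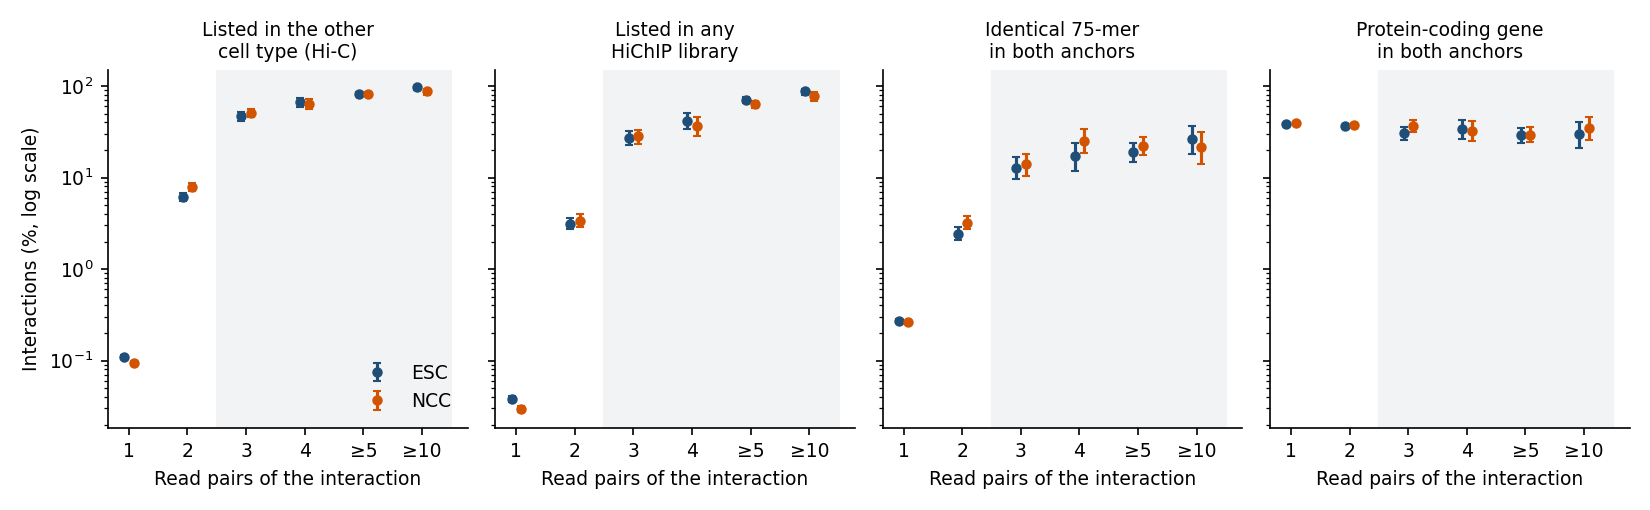
Share of interactions (percent, log scale) that were listed in the other cell type, were listed in HiChIP, shared a 75-mer, or had protein-coding genes in both anchors, by the number of read pairs of the interaction in ESC and NCC Hi-C. Points are shares, bars are 95% Wilson intervals, and the repeated pairs are shaded: listing in NCC goes from 6.16% at score 2 to 46.9% at score 3 in ESC, while the share with protein-coding genes does not rise with the score.

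An identical run of 75 bases, the read length, in both anchors was found in 117 ESC pairs (15.9%, interval 13.5 to 18.8) against 0.285% of all interactions. In NCC it was found in 132 pairs (19.0%, interval 16.3 to 22.1) against 0.272%. A shorter identical run of 36 bases was common in all interactions. It was found in 40.5% of ESC pairs against 14.1%, and in 45% of NCC pairs against 14.3%. Most pairs thus joined anchors with no identical stretch as long as a read. Anchors of mostly repeated sequence were fewer still. A multi-copy anchor, of which at least 50% of sampled 50-base words occurred more than once in the genome, was present in 58 ESC pairs (7.9%, interval 6.16 to 10.1) against 1.07%, and in 39 NCC pairs (5.62%, interval 4.14 to 7.59) against 0.929%. Neither a shared 75-mer nor a multi-copy anchor was present in 575 ESC pairs and 539 NCC pairs, and 229 and 230 of these reached a score of 3 or more in the other cell type. Repeat-masked bases made up 31.5% of the anchors of ESC pairs on average against 25.5% for all interactions, and GC content was 45.6% against 45.8%.

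Counted by pair, protein-coding genes in both anchors were not more frequent in the repeated pairs than in all inter-chromosomal interactions. Both anchors overlapped a protein-coding gene in 225 ESC pairs (30.7%, interval 27.4 to 34.1) against 38.6% of all interactions, and in 231 NCC pairs (33.3%, interval 29.9 to 36.9) against 39.4%. Neither anchor did in 22.8% of ESC pairs against 15.5%, and in 20.7% of NCC pairs against 14.9%. Promoters, taken as the 1 kb before the start of a protein-coding transcript, lay in both anchors of 20 ESC pairs (2.72%) against 3.71%, and of 17 NCC pairs (2.45%) against 3.39%. The promoter intervals, 1.77 to 4.17% and 1.53 to 3.89%, include the background. Outside the largest connected group of loci, described below, protein-coding genes lay in both anchors of 33.9% of ESC pairs and 36.4% of NCC pairs.

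Further contacts lay around some of the pairs. Within 100 kb of both anchors, and leaving out the pair's own matches, 5 or more further inter-chromosomal read pairs joined the same regions in 247 ESC pairs (33.7%) against 0.133% of all interactions. In NCC this held for 228 pairs (32.9%) against 0.0918%. The ends of the pairs lay near the ends of the assembled chromosomes more often than those of all interactions. The first 5 Mb held 77 of 1468 ends in ESC (5.25%, against 1.78%) and 81 of 1388 in NCC (5.84%, against 1.61%). The last 2 Mb held 73 in ESC (4.97%, against 1.93%) and 57 in NCC (4.11%, against 1.99%). Part of these ends lay at single loci of the largest connected group. The locus of chr6:3200741-3202193 held 20 of the 77 and 21 of the 81 ends in the first 5 Mb. Lars2 on chromosome 9 held 21 of the 73 and 21 of the 57 in the last 2 Mb. Shares without these loci were not counted. The ends were shared out unevenly over chromosomes, with chromosome 16 highest relative to all ends (6.34% against 3.92% in ESC, 7.20% against 4.01% in NCC) and chromosome 15 lowest (3.07% against 4.62%, and 3.03% against 4.55%). On chromosome 16 much of this came from a few loci of the largest group. Those of Cmss1, Gm15564 and Zc3h7a held 18, 17 and 12 of its 93 ends in ESC. In NCC they held 19, 17 and 12 of its 100 ends.

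Merging anchors within 50 kb gave 1304 loci, of which 835 carried pairs in ESC, 808 in NCC and 339 in both. Most loci, 1128, had 1 partner, while 36 had 5 or more and 19 had 10 or more. The loci fell into 545 groups connected by pairs, and 458 of these groups were just 2 loci. The largest group had 62 loci and the next had 20 and 7. The largest group held 24.5% of the pairs and 46.2% of their read pairs in ESC, and 24.4% and 41.6% in NCC. The 10 loci with most partners alone held 171 of 1468 ends in ESC (11.6%) and 167 of 1388 in NCC (12%). The pairs were then put into 4 classes, which were defined after their values had been seen. They are the largest group (180 pairs in ESC, 169 in NCC), pairs outside it that share a 75-mer (98 and 114), pairs with no shared 75-mer and 5 or more further read pairs around them (217 and 195), and the rest (239 and 216).

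**Figure D2:**
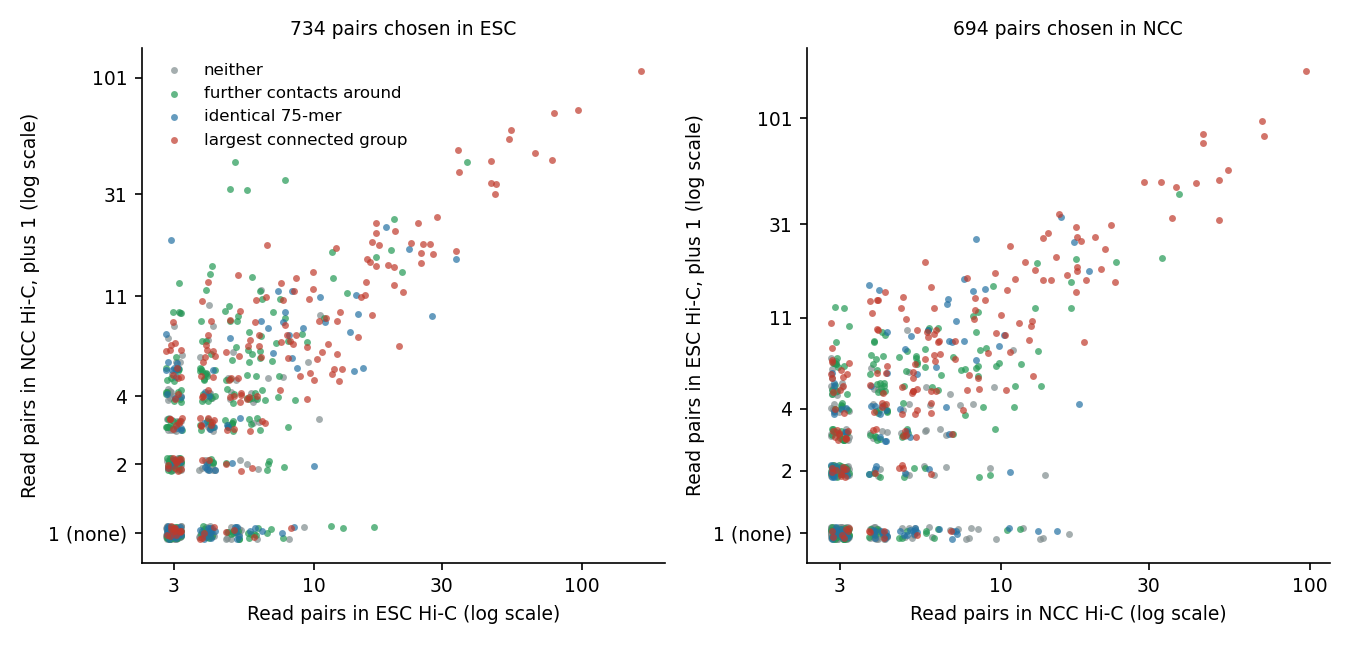
Read pairs of each repeated pair in the cell type that chose it (x axis, log scale) and in the other cell type (y axis, read pairs plus 1, log scale), coloured by class, with a small random shift to separate points. The pairs with over 50 read pairs belong to the largest connected group and are listed in both cell types, while pairs with none in the other cell type lie at 1 on the y axis and have at most 16 read pairs in the cell type that chose them.

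The largest group was centred on loci that joined most of each other. Its 15 leading loci form 100 locus pairs on different chromosomes, of which 80 were joined by a repeated pair in ESC, 79 in NCC and 75 in both. These loci were ranked by their partners over both cell types together, so that the counts follow in part from this choice. The locus with most partners, 24, was an anchor overlapping a coding exon of Lars2 (chr9:123461219-123462804), the mitochondrial leucyl-tRNA synthetase. It was followed by an intron of Cdk8 (chr5:146260376-146261916), a kinase of the Mediator complex, with 22, and by the introns of Cmss1 and Filip1l (chr16:57390497-57392310) with 21. Coordinates given here are those of the leading anchor, and the counts are those of the merged locus. There were 19 partners each for the loci of chr6:3200741-3202193 and chr6:49235873-49237328, anchors without a gene. An anchor overlapping an exon of the antisense RNA Gm15564 in an intron of Kpna1 (chr16:35980744-35982454) also had 19. The locus of chr10:11491366-11492854, also without a gene, had 18. Introns of Gphn (chr12:78349416-78351665), which encodes the synaptic scaffold gephyrin, and Jarid2 (chr13:44868174-44870990), a partner of Polycomb complex PRC2, had 17 each. Next came chr11:109010881-109012678 and chr18:68691427-68693058, both without a gene, with 14 each. An anchor overlapping a coding exon of Zc3h7a and the miRNA gene Gm23935 (chr16:11143346-11145515) also had 14. The last were chr8:15519320-15520719 without a gene, with 13, and an anchor over Brox and Aida (chr1:183295831-183300448), with 12.

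The leading loci carried repeated pairs in both cell types, with fewer read pairs in NCC at most of them. Lars2 had 442 in its repeated pairs in ESC and 400 in NCC, Cdk8 291 and 241, and Cmss1 466 and 376. The gap was wider at the locus of chromosome 10 (196 and 113), at those of chromosomes 18 (196 and 125) and 8 (161 and 109) and at Gphn (163 and 114), while Gm15564 had more in NCC (260 and 288). These differences have no replicate check. The strongest pair within this set, Lars2 with Zc3h7a, had 98 read pairs in ESC Hi-C and 75 in NCC Hi-C. It had 14 and 8 in ESC FGFR1 and CTCF HiChIP, and 25 and 9 in NCC. All 6 libraries held this pair, and its anchors shared no 36-mer. Lars2 with Gm15564 had 79 and 70 in Hi-C and 25, 18, 28 and 10 in the same order of HiChIP libraries, with anchors that aligned over 167 bases at 97.6% identity. Cmss1 with the locus of chromosome 18 had 81 and 45, and with that of chromosome 8 had 71 and 48. These pairs shared 110 and 197 words of 75 bases. Without any shared 36-mer, chr6:49235873 with Gm15564 had 54 and 56, Cdk8 with the locus of chromosome 10 had 49 and 32, and Cdk8 with Cmss1 had 47 and 35. High scores were thus found both with and without a shared 36-mer. The anchors of Cdk8 and the locus of chromosome 10 did align, over 117 bases at 86.3% identity. Jarid2 with Cmss1 (52 and 51) and chr6:49235873 with Lars2 (47 and 43) shared words of 36 bases, as did chr6:49235873 with Gphn (35 and 16), while the locus of chromosome 10 with Cmss1 (47 and 31) and Lars2 with Cmss1 (34 and 50) shared none.

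**Figure D3:**
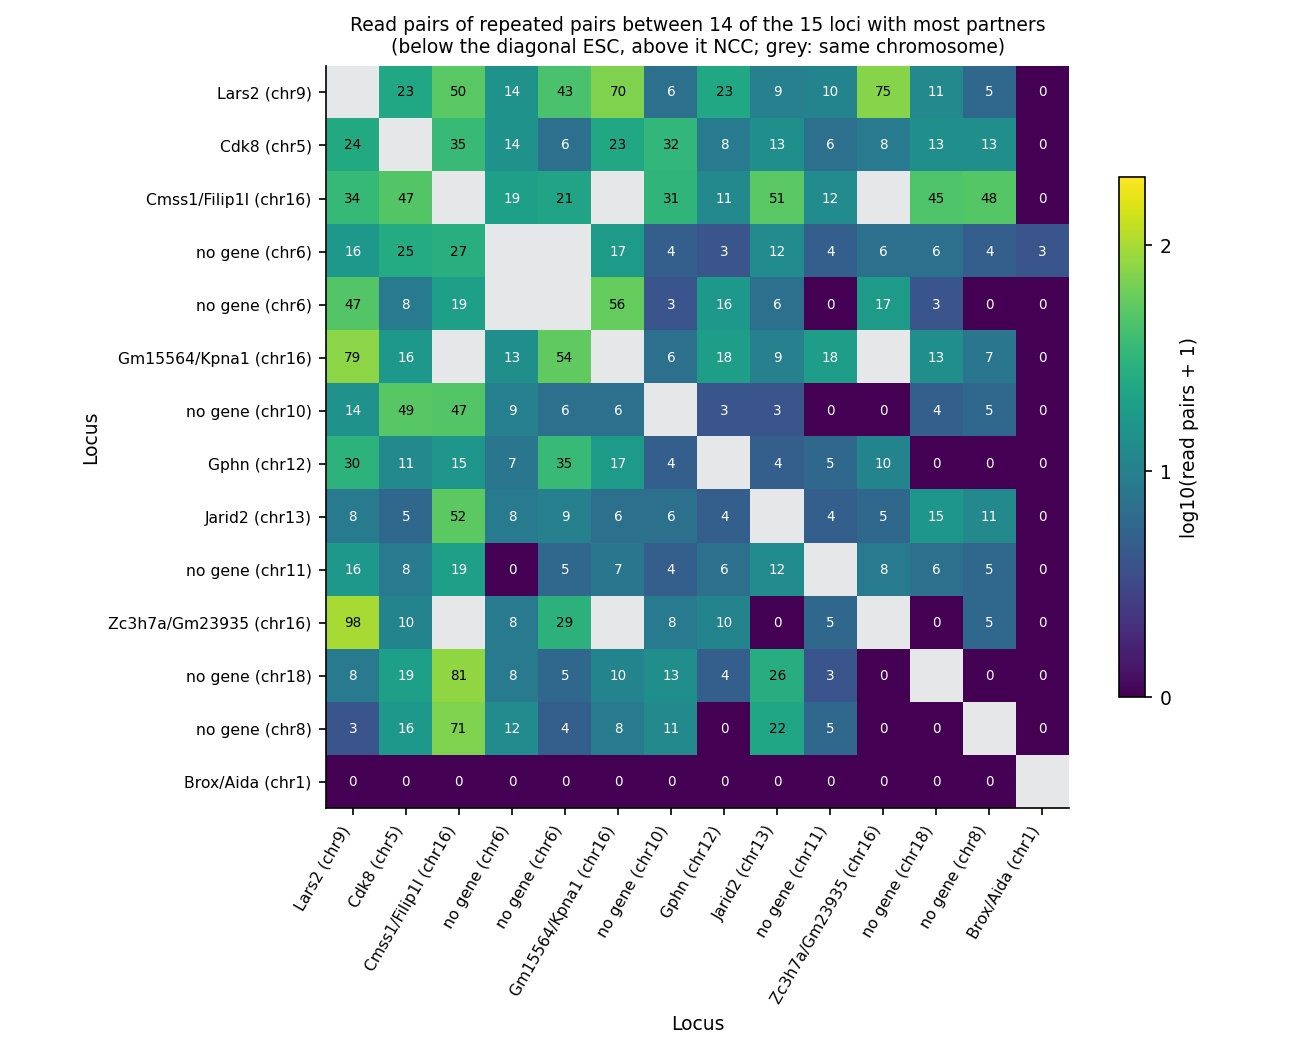
Read pairs in repeated pairs between 14 of the 15 loci with most partners, named by gene and chromosome, with ESC below the diagonal, NCC above it, and grey where both loci are on the same chromosome. Colour is log10 of read pairs plus 1, and 0 means no pair with a score of 3 or more: all but Brox/Aida join one another widely in both cell types, while Brox/Aida joins the others by 3 read pairs, in NCC.

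The remaining named pairs of this set were weaker and again present in both cell types. Zc3h7a with chr6:49235873 had 29 in ESC and 17 in NCC, and Cmss1 with chr6:3200741 had 27 and 19. Jarid2 with the locus of chromosome 18 had 26 and 15, Cdk8 with chr6:3200741 had 25 and 14, Cdk8 with Lars2 had 24 and 23, Cdk8 with Gm15564 had 16 and 23, and Cmss1 with chr6:49235873 had 19 and 21. The only ESC pair of the set with 8 or more read pairs that was not listed in NCC joined the locus of chromosome 10 with Zc3h7a, with 8.

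The group was also linked to the chromosome 17 window, which holds an rRNA gene fragment and was not part of the choice. In ESC 40 of the 63 anchors of the group (63.5%, interval 51.1 to 74.3) had a read pair with that window, against 0.727% of all anchors on other chromosomes. In NCC 41 of 62 did (66.1%, interval 53.7 to 76.7), against 1.02%. A score of 3 or more with the window was reached by 38 of 63 in ESC (60.3%) against 0.0208%, and by 36 of 62 in NCC (58.1%) against 0.0209%. These 38 and 36 anchors stand beside 49 such anchors in the whole table of each cell type. The anchors of all other repeated pairs were much nearer to the background, with 11 of 886 in ESC (1.24%) and 16 of 854 in NCC (1.87%) having any read pair with the window, and 0 and 1 having 3 or more (0 of 886 allows up to 0.432%). The locus of chr6:3200741-3202193 had the most of the leading loci, 1461 in ESC and 941 in NCC, and its leading anchor aligned to the RefSeq rRNA pseudogene Rn18s-rs5 in the window over 901 bases at 98.2% identity. Lars2 had 450 and 562, Cdk8 537 and 505, and Cmss1 672 and 721. The Lars2, Cdk8 and Cmss1 anchors shared no 36-mer with the window.

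The anchors of the group stood apart from other anchors in where their read pairs led. Among all anchors with at least 50 read-pair ends, a median of 10.0% of read-pair ends in ESC and 11.6% in NCC belonged to inter-chromosomal read pairs. In the largest group the median was 46.6% and 52.3%, and at Lars2 it was 93.4% and 93.8%, at Cdk8 90.1% and 89.3%, and at chr6:3200741-3202193 97.9% and 96.9%. Brox/Aida was lower, at 57.5% and 56.4%. The medians of the other 3 classes lay between 13% and 16.6% in ESC and between 14.7% and 18.2% in NCC. These percentages include the read pairs that chose the pairs and are a description. The distinct anchors of the group had a median length of 2901 bases in ESC and 3068 in NCC. All anchors with at least 50 read-pair ends had medians of 3306 and 3314.

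**Figure D4:**
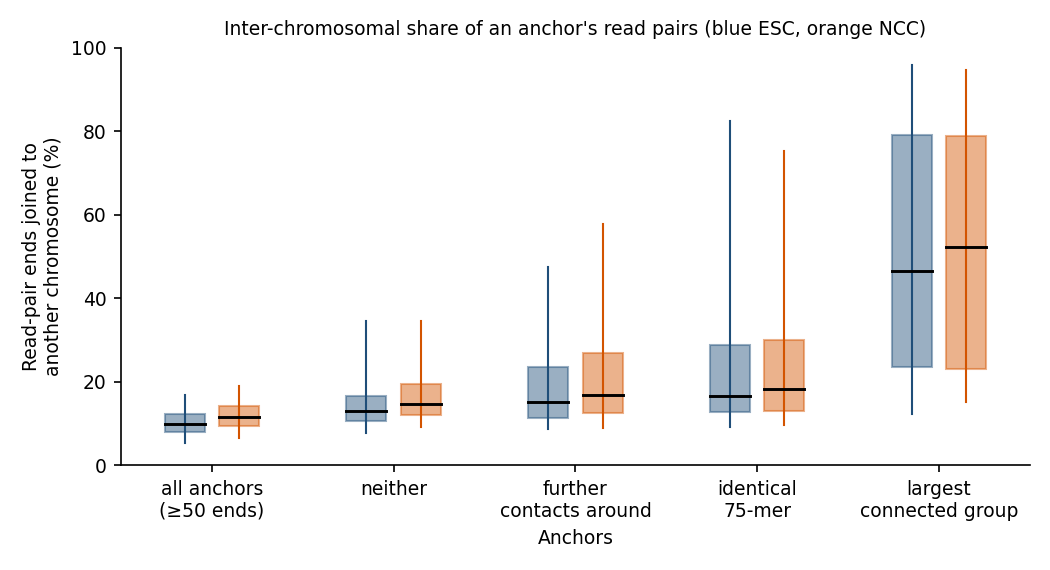
Percent of an anchor's read-pair ends that belong to inter-chromosomal read pairs, for all anchors and for the anchors of each class in ESC (blue) and NCC (orange). Lines mark medians, boxes the 25th to 75th and whiskers the 5th to 95th percentiles. The median is 46.6% in ESC and 52.3% in NCC for the largest connected group, and at most 18.2% for the other classes.

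Brox and Aida formed the strongest pair of all with an intron of E030030I06Rik (chr10:22141579-22143884). It had 161 read pairs in ESC Hi-C, 102 in NCC Hi-C, 13 in ESC FGFR1 HiChIP, 16 in ESC CTCF HiChIP, 13 in NCC FGFR1 HiChIP and 5 in NCC CTCF HiChIP. The anchors shared no 36-mer and aligned over 186 bases at 91.4% identity. Both also had other partners, such as chr13:3372314 for Brox and Aida (24 in ESC, 18 in NCC) and chr15:75084026 for E030030I06Rik (20 and 15). A pair of chr3:5857855 with Il31ra, an interleukin receptor gene, had 33 and 36, and was listed in CTCF HiChIP (5 in ESC, 2 in NCC) and not in FGFR1 HiChIP. At these read numbers that difference between antibodies has no replicate check.

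In the largest group 88.9% of the ESC pairs were listed in NCC (interval 83.5 to 92.7) and 92.3% of the NCC pairs in ESC (interval 87.3 to 95.4). The HiChIP tables listed 86.1% and 82.2%. Outside it 56.0% and 56.2% were listed in the other cell type, and 33.2% and 30.1% in HiChIP, which is still far above the background. The median score was 6 in ESC and 5 in NCC in the group, and 3 in each cell type outside it. Listing rose with the score, and the group was not compared with other pairs at equal score.

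Some of the pairs that shared a 75-mer outside the largest group joined an anchor with a gene to an anchor with a pseudogene. A protein-coding gene at one anchor and a processed pseudogene at the other were found in 31 of 98 such pairs in ESC (31.6%, interval 23.3 to 41.4) and in 37 of 114 in NCC (32.5%, interval 24.6 to 41.5). Among all repeated pairs this was 70 (9.54%) and 67 (9.65%). The class was defined by shared sequence, which a gene and its pseudogene copy have by origin, so its share is not independent of that definition. The share over all interactions was not counted. The anchors of this class aligned over a median of 472 bases at 96.3% identity in ESC and 340 bases at 95.1% in NCC. In ESC 60.2% of them were listed in NCC (interval 50.3 to 69.3), and in NCC 59.6% were listed in ESC (interval 50.5 to 68.2). Atp6v0c, a subunit of the vacuolar proton pump, was joined to its pseudogene Atp6v0c-ps2 by 26 read pairs in ESC and 8 in NCC, over 190 aligned bases at 98.9% identity. Atp6v1g1, a subunit of the same pump, was joined to the pseudogene Gm13453 by 9 and 7. Rplp1, a ribosomal stalk protein, was joined to Gm11942 by 15 and 4, the ubiquitin-conjugating enzyme gene Ube2j2 to Gm5801 by 14 and 10, and the glycolytic enzyme gene Gpi1 to Gm1840 by 9 and 4. The histone pair printed above, Hist2h2aa2 with Hist1h2al, had 8 and 10. The Rplp1, Ube2j2 and Gpi1 pairs had no read pair in HiChIP, the Atp6v0c pair had 1 in ESC FGFR1 HiChIP and the Atp6v1g1 pair 2 in NCC FGFR1 HiChIP, and the histone pair had 1 in ESC CTCF and 3 in NCC FGFR1 HiChIP. Among pairs without such an annotation, C230088H06Rik and Gm26624 on chromosome 4 were joined to chr6:67673913 by 34 and 15 and to Abcg2 by 18 and 22, with anchors that aligned over 3041 bases at 90.6% and 2698 bases at 92.5%. Clcn4, a chloride transporter gene, was joined to chr9:123923310 by 23 and 17. The pair of chr1:99352213 with an intron of Mpdz had 14 and 4 in Hi-C and 11, 12, 6 and 4 in ESC FGFR1, ESC CTCF, NCC FGFR1 and NCC CTCF HiChIP.

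Among annotated gene classes, pseudogenes stood out at the anchors of repeated pairs as well. The median length of these anchors was 4415 bases in ESC and 4170 in NCC, against 2897 and 2923 for all anchors. Longer anchors overlap any annotation more often, and the shares of gene classes and families given here are not adjusted for length. A processed pseudogene lay in 76 of 999 ESC anchors (7.61%, interval 6.12 to 9.42) against 1.89% of all anchors, and in 76 of 963 NCC anchors (7.89%, interval 6.35 to 9.77) against 1.9%. Unprocessed pseudogenes lay in 16 ESC anchors (1.6%, against 0.526%) and 9 NCC anchors (0.935%, against 0.517%). Rpl and Rps ribosomal protein genes lay in 9 ESC anchors (0.901%, against 0.136%) and 8 NCC anchors (0.831%, against 0.135%). Histone genes lay in 2 (against 0.0155%) and 4 (against 0.0148%), Snord genes in 2 (against 0.0139%) and 2 (against 0.0144%), and Duxf in 1 (against 0.000408%) and 0 (against 0.000411%). Small nuclear RNA genes lay in 6 ESC anchors (0.601%, against 0.203%) and 5 NCC anchors (0.519%, against 0.204%), and miRNA genes in 11 (1.1%, against 0.401%) and 13 (1.35%, against 0.405%). Annotated rRNA genes lay in 1 anchor of each (0.1% against 0.0571%, and 0.104% against 0.0567%).

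Large gene families that are clustered in the genome were near their background. Olfactory receptor genes lay in 5 anchors of each (0.501% against 0.424%, and 0.519% against 0.395%), and vomeronasal receptor genes in 2 (against 0.169%) and 1 (against 0.131%). Zfp zinc finger genes lay in 6 (0.601%, against 0.68%) and 11 (1.14%, against 0.7%). Genes for lncRNAs lay in 11.9% of ESC anchors against 9.9%, and in 10.9% of NCC anchors against 10.1%. Protein-coding genes lay in 55.4% against 50.3%, and in 56.9% against 50.8%. These last shares count each anchor a single time, whereas the lower share of pairs with genes in both anchors counts each pair. None of the anchors overlapped a Hox, Speer, Pramel, Zscan4, Sp100, Sp140, Trn, n-R5s or mt- gene. A count of 0 of 999 allows up to 0.383%, which is above the share of each of these families among all anchors.

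Pairs with further contacts around them formed 150 locus pairs, of which 135 had read pairs in both cell types and 116 had at least 5 in each. Of the 102 locus pairs with 20 or more read pairs within 100 kb of both anchors, 99 were seen in both cell types and 91 in HiChIP. Some of these windows overlap. Rab3ip on chromosome 10, which encodes a Rab exchange factor, and Lnx1 on chromosome 5, a ubiquitin ligase gene, had 116 read pairs in ESC Hi-C and 86 in NCC Hi-C, and 15, 7, 20 and 4 in ESC FGFR1, ESC CTCF, NCC FGFR1 and NCC CTCF HiChIP. Obox4-ps35 on chromosome 7 and Itpkb on chromosome 1, an inositol trisphosphate kinase gene, had 88 and 79, and 20, 17, 18 and 4. These contacts were thus present in every library. Rabgef1 with Abca17 had 54 and 65 and Zzef1 with Fam222a had 45 and 66. Mesp2, a somite transcription factor gene, with Gm41361 had 51 and 45, Slc31a1 and Cdc26 with L3mbtl1 had 51 and 39, Platr11 with a locus of chromosome 16 had 38 and 44, and Chpt1 with a locus of chromosome 2 had 48 and 31.

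Their read pairs were narrow on one side and spread on the other. Over the 102 locus pairs, the central read pairs, from the 10th to the 90th percentile of position, spanned a median of 919 bases on the narrower side and 87462 bases on the wider side. A median of 100% of the read pairs lay on 1 anchor of the narrower side, against 31.5% on the wider side. At least 80% lay on 1 anchor in 74 of 102 on the narrower side and in 1 on the wider side. The narrower side is so by definition, and the window of 100 kb bounds the wider side. Zzef1 with Fam222a is an example, with 98.2% of its read pairs on 1 anchor in Zzef1 and 46.8% on 1 anchor at Fam222a. Mesp2 with Gm41361 had 99.0% and 43.8%. Rab3ip with Lnx1 was broader, with 37.1% and 19.3%.

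**Figure D5:**
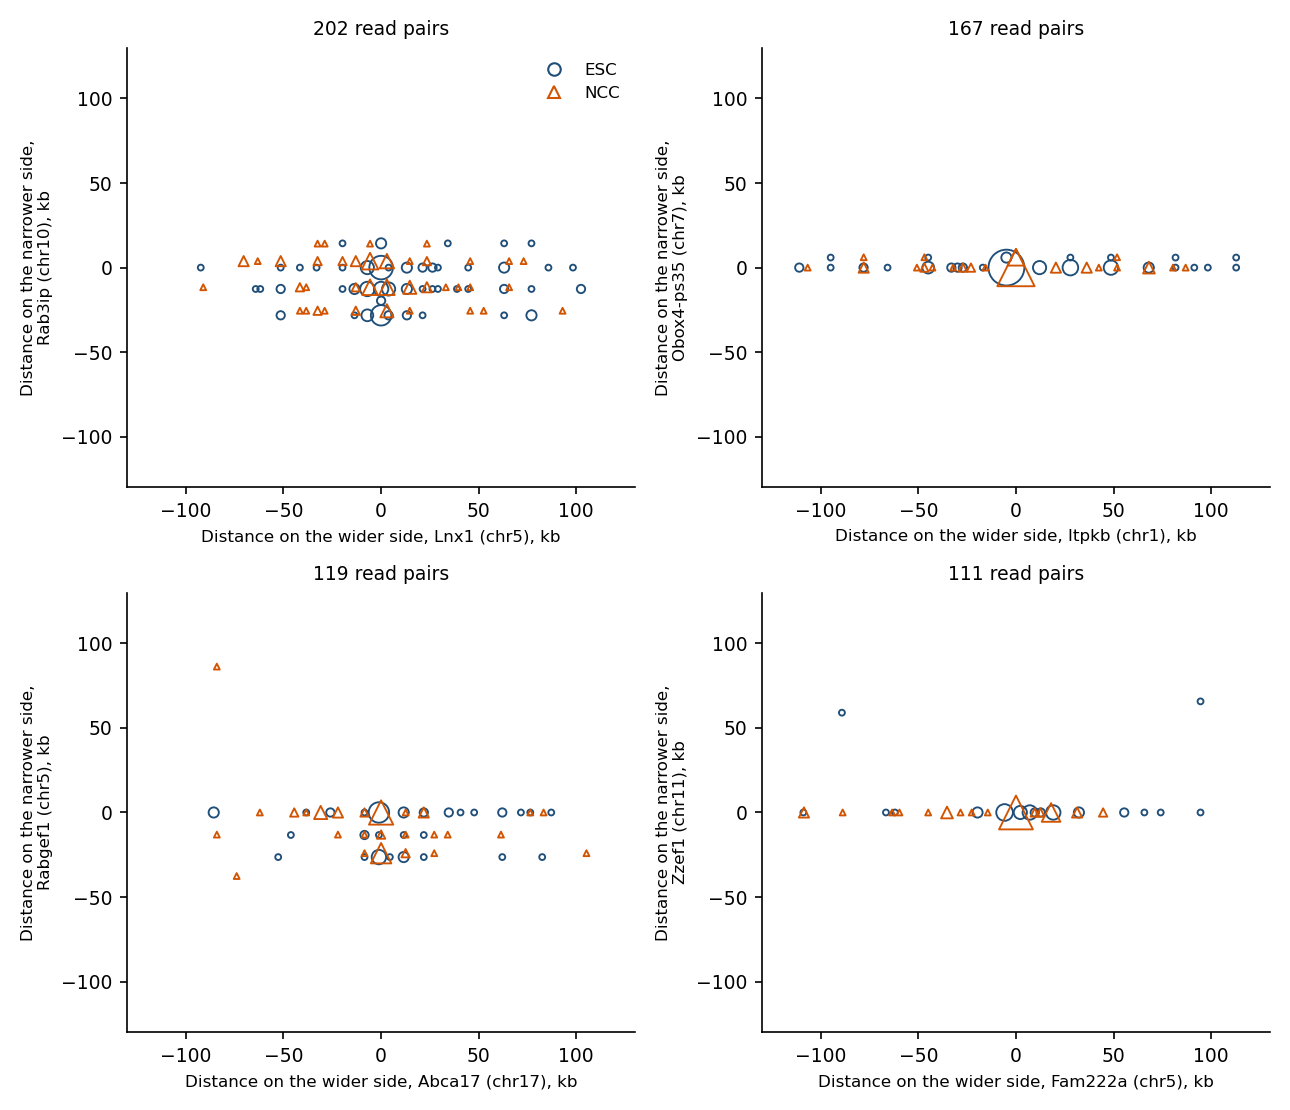
Positions of inter-chromosomal Hi-C read pairs, taken as anchor midpoints, around 4 repeated pairs with further contacts, as distance in kb on the narrower side (y axis) and on the wider side (x axis) from the anchor of highest score, with ESC as circles and NCC as triangles and larger symbols for more read pairs. In both cell types nearly all read pairs lie in 1 or a few rows on the narrower side and spread along the whole window on the wider side.

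In single pairs of this class, Itpkb with Obox4-ps35 had 37 in ESC and 40 in NCC, and Mesp2 with Gm41361 20 and 22. A630035G10Rik with the cell cycle kinase gene Cdk4 had 20 and 13. Fam222a with Zzef1 had 33 in NCC. Its matches in ESC had 19 as a sum over several interactions, of which the highest had 8. The highest pair of Rab3ip with Lnx1 had 16 in ESC and none in NCC, where 1 of its anchors had not been called, although NCC held 86 read pairs around it. In this class 39.6% of the ESC pairs and 33.8% of the NCC pairs could be aligned, a share not measured over all interactions. In the other cell type 70.5% (interval 64.1 to 76.2) and 73.8% (interval 67.3 to 79.5) were listed. Protein-coding genes lay in both anchors of 40.1% and 44.1%, close to the 38.6% and 39.4% of all interactions.

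The remaining pairs, which shared no 75-mer and had fewer than 5 further read pairs around them, were the class of the 4 with the lowest shares listed in the other cell type and in HiChIP. A median of 1 further read pair lay around them in both cell types. In ESC 41.0% (interval 35.0 to 47.3) were listed in NCC and 16.3% in HiChIP, and in NCC 38.4% (interval 32.2 to 45.1) were listed in ESC and 12.5% in HiChIP. Their median score was 3. Their anchors aligned in 73.2% of ESC pairs, with a median of 166 bases at 88.7% identity. In NCC 76.9% aligned, with a median of 168 bases at 89.9%. Alignments were made for repeated pairs only, so that no share over all interactions can be set beside these. Copies of the aligned stretches elsewhere in the genome were not counted.

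Pairs of one cell type with both anchors called in the other and no read pair there numbered 188 in ESC and 153 in NCC, with a median score of 3. At a score of 3 a contact of equal frequency can be missed at this depth, while a pair with many more read pairs was detectable in a library of this size. In HiChIP 42 of the 188 (22.3%) and 19 of the 153 (12.4%) were listed, against 59.6% and 59.2% of the pairs that were listed in both Hi-C tables. With 8 or more read pairs there were 4 such pairs in ESC, of which 3 were in HiChIP, and 8 in NCC. All 8 of NCC had anchors that aligned over 156 to 198 bases at 85.7 to 93.3% identity and shared 36-mers, and 0 of the 8 were in HiChIP. Of the 107 NCC pairs of that score that were listed in ESC, 88 were in HiChIP. Among these 107 pairs, 61 had anchors that aligned, 33 of them over 100 to 249 bases, and 39 shared a 36-mer. Lmtk2 with Ift88, whose aligned stretch is printed above, had 16 in NCC and none in ESC or HiChIP, Pom121 with a locus of chromosome 15 had 14, Gm38399 with Chaf1a and Ubxn6 had 13, and Cul9 with Htr7 had 13. Copies of these aligned stretches elsewhere in the genome were not counted, and whether alignable sequence has a part in these differences between the cell types was not tested. The highest of ESC, Rab2b with L3mbtl2, had 9 and anchors that aligned over 161 bases at 87.6% identity.

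Multiplying the inter-chromosomal read-pair ends of both anchors gives a scale for the scores. Divided by the ends of all inter-chromosomal read pairs, this product was at most 0.522 read pairs for any repeated pair in ESC and 0.293 in NCC, with medians of 0.00065 and 0.000511. The scores were at least 37.3 and 33.3 times as high. The ends include the read pairs of the pair itself, and the score chose the pairs, so that this is a description.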

How the data were processed

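The deposited score of an interaction was taken as a count of read pairs joining its anchors, since scores are whole numbers with totals that differ between tables. The methods also name a normalization of valid pairs between cell types, and whether it had been applied to these tables is not given in the sources used here. The authors aligned 75-base reads, removed duplicates with HiC-Pro, called anchors per sample with hichipper without filtering on q, and merged both biological replicates. The submitters' processing notes name mm10, the build of the coordinates here, and all anchors of the 6 tables start and end at a GATC of GRCm38. Total read pairs were 20790622 in ESC Hi-C, 21279750 in NCC Hi-C and 1065662 to 3232003 in HiChIP. Hi-C pairs were matched to other tables where both anchors overlapped by at least 1 base. The read pairs of a pair in another table are the sum over all interactions matched there. Words shared by anchors were counted on both strands, and 1 in 64 of the 50-base words was sampled for copy number. Aligned stretches came from blastn 2.17.0 at an e-value of 1e-10, and genes from GENCODE vM21. Word search, matching and merging were tested on simulated data. The pairs, the 15 loci, the gene families and the measures were chosen with earlier results of these data known. The 4 classes of pairs and the examples within them were chosen after their values were seen. Named pairs are the 15 of highest score in each cell type, the 15 highest without a shared 75-mer or multi-copy anchor, and up to 20 of that kind with a score of at least 3 in both. Since replicates were merged, no test between cell types was made, and 95% Wilson intervals cover counting error only: PCR reads are not independent molecules, and pairs share anchors. Pairs with an anchor on X or on other sequences were left out. Some loci and pairs counted in the totals are not reported here by name.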

Additional observations from a re-analysis of the deposited data

Results flagged for a closer look

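Interactions between the X chromosome and an autosome were outside the choice of pairs. In ESC Hi-C 25 of 28462 had a score of 3 or more, with a highest score of 16, and in NCC Hi-C 26 of 27868 did, with a highest score of 21. They were not used in any comparison here, and there are no control libraries to set them against. In the 4 HiChIP tables, between 0 and 3 X-autosome interactions had such a score.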

How the results depend on the processing

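No paired analysis was possible because the deposited tables merge the replicates. Of 58 alternative values, 15 stayed within the counting interval or within 1.5 times the number of pairs, and 43 moved, most with the minimum score. At a minimum of 2 read pairs, ESC and NCC had 6548 and 5348 pairs, of which 12.6% and 15.3% were listed in the other cell type, 3.96% and 5.27% shared a 75-mer, 2.87% and 2.79% had a multi-copy anchor, 7.96% and 8.51% were listed in HiChIP, and 35.8% and 37.0% had protein-coding genes in both anchors. The 10 loci with most partners then held 2.06% of the ends. At a minimum of 5, there were 273 and 261 pairs, with 82.8% and 82.0% listed in the other cell type, 19.0% and 22.2% with a shared 75-mer, 5.49% with a multi-copy anchor in ESC, 70.7% and 63.2% in HiChIP, 29.5% with protein-coding genes in both anchors in NCC, and 23.3% of ends in the 10 loci. Matching within 5 kb gave 71.5% and 72.0% for the other cell type, and 54.8% and 49.7% for HiChIP. A 36-mer in place of the 75-mer gave 40.5% and 45%. Multi-copy anchors made up 31.3% and 30.7% at a limit of 20%, and 1.5% and 1.73% at 80%. Promoters in place of gene bodies gave 2.72% and 2.45%. The rest of the alternatives were chosen after seeing the data. Among pairs with both anchors called in the other library, 71.4% and 74.7% were listed there. Without the largest connected group, 56.0% and 56.2% were listed in the other cell type, 33.2% and 30.1% in HiChIP, and 10.3% had a multi-copy anchor in ESC. Many pairs rest on 3 or 4 read pairs, and for these a contact of equal frequency can be missed in another table at this depth.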
